A study of Mus musculus with 11 samples.

Results

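The 9 genes described here were listed as genes of the liver's vascular endothelium or of Wnt signals that it releases. They were followed in mouse liver sections before and after acetaminophen (APAP) poisoning: Wnt2, Wnt9b, Rspo3, Thbd, Vwf, Efnb2, Ltbp4, Cd34 and Plvap. They were taken by name, with no measured value used, and make up 9 of the 31053 genes in the files. All 9 were among the 14821 genes with enough counts to be tested across time points. Spatial transcriptomics (Visium, in which each spot of a slide captures the polyadenylated RNA of a small patch of tissue) was run on 11 snap-frozen sections. There were 3 uninjured sections, called 0 h (sections 2, 3 and 4), and injured sections taken 24 h (A and B), 36 h (A and B) and 48 h (A, B, C and D) after APAP.

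The study's methods describe young adult wild-type mice of a C57BL/6 substrain, male unless stated otherwise, that were fasted and then given APAP into the peritoneum, and the labels carry no strain, age or dose for a section. Those methods give 1 mouse per time point for the mouse spatial work, so the replicates below are sections, the p-values over time cover only the spread between sections, and the effect of time and the difference between mice cannot be told apart. Comparisons of bins or spot classes took the section as a block. Their p-values cover only the variation left once level differences between sections are removed. The labels name no slide or batch. Passing spots numbered 1490 to 3466 per section and carried 31292663 to 67045372 unique molecular identifiers (UMIs, each counting 1 captured RNA molecule). The 9 genes together gave 80069 UMIs. By gene the total was 2768 for Wnt2, 610 for Wnt9b, 3253 for Rspo3, 6681 for Thbd, 2264 for Vwf, 1190 for Efnb2, 17174 for Ltbp4, 1660 for Cd34 and 44469 for Plvap, so that Wnt9b and Efnb2 had the fewest UMIs.

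Blood enters the liver lobule from portal veins and hepatic arteries, crosses the sinusoids and leaves by the central vein. Endothelial cells of the central vein and the neighbouring sinusoids secrete Wnt2 and Wnt9b, ligands of the β-catenin pathway, and R-spondin 3 (Rspo3), which strengthens the response by protecting Wnt receptors from degradation. Hepatocytes around the central vein answer with a programme that includes glutamine synthetase (Glul) and the cytochromes P450 that make APAP toxic, and APAP kills hepatocytes in that pericentral area. Thrombomodulin (Thbd) is the endothelial receptor that turns thrombin towards anticoagulation, and von Willebrand factor (Vwf) is the adhesive glycoprotein that large-vessel endothelium and megakaryocytes store for platelet binding. Ephrin B2 (Efnb2) is a membrane ligand typical of arterial endothelium, and Ltbp4 binds latent TGFβ in the extracellular matrix. Cd34 is a sialomucin of capillary and large-vessel endothelium that sinusoids largely lack, and Plvap forms the diaphragms of endothelial fenestrae and caveolae.

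In GRCm38, the build of the reads' alignment (mm10), the genes lie at chr6:17988940-18030585 (Wnt2, minus strand), chr11:103727364-103749821 (Wnt9b, minus), chr10:29452416-29535867 (Rspo3, minus), chr2:148404466-148408188 (Thbd, minus), chr6:125546774-125686679 (Vwf, plus), chr8:8617434-8661242 (Efnb2, minus), chr7:27305136-27337692 (Ltbp4, minus), chr1:194938819-194961279 (Cd34, plus) and chr8:71497765-71511752 (Plvap, minus).

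Both ends of the lobule are shown by 1 upstream sequence each, since Wnt9b had the highest fold towards the central vein and Cd34 the highest towards the portal tract in the comparison of zones described next. RefSeq promoter entries (GRCm38.p6) were found for 5 of the 9 members, and none for Rspo3, Thbd, Vwf and Plvap. The stretches run over the 250 bases before the annotated start, 5′ to 3′ on the strand of the gene, at chr11:103749822-103750071 (minus strand) for Wnt9b and chr1:194938571-194938820 (plus strand) for Cd34. Capitals mark GGAA or, for the other strand, TTCC, the core letters that ETS transcription factors of endothelium recognise.
Wnt9b: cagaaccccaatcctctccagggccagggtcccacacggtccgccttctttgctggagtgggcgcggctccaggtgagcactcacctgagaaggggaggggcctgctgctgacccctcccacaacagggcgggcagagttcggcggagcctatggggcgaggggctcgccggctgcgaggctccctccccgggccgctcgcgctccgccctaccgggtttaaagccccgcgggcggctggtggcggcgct
Cd34: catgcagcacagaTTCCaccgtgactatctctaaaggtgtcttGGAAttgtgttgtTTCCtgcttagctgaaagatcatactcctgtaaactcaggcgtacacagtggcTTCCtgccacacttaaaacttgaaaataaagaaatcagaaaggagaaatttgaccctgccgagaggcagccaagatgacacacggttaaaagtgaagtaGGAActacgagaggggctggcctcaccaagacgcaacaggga
The Cd34 window held 5 such matches and had a GC content of 46.4%, whereas the Wnt9b window held 0 and had a GC content of 72.0%. These letters are common: 93.4% of 32851 RefSeq promoter windows of the same length held at least 1 match, with a median of 3, so a match is only a description of the sequence.

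The first question was where along the lobule each gene was found in the uninjured liver. Spots of the 3 sections at 0 h were ordered by a score built from 23 pericentral and 12 periportal hepatocyte genes, none of them a member, and cut into 5 bins from periportal (bin 1) to pericentral (bin 5). Wnt2, Wnt9b, Rspo3, Thbd and Vwf were higher in bin 5, and Efnb2, Ltbp4 and Cd34 were higher in bin 1. Thus 8 of 9 members were called between bin 5 and bin 1, 5 higher and 3 lower, where 28.2% of 11888 genes tested were called, 13.6% higher and 14.6% lower (edgeR's quasi-likelihood test with the section as a block, Benjamini-Hochberg adjusted p under 0.05). The 3 sections may come from 1 mouse, and each bin value is given in UMIs of the gene per 1000000 UMIs (CPM), scaled by edgeR within that comparison.

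Wnt2 rose along the whole axis. Its level over bins 1 to 5 was 2.44, 3.90, 6.53, 8.93 and 10.5 CPM in section 2, 2.04, 2.96, 3.60, 8.24 and 8.74 CPM in section 3, and 1.52, 2.13, 6.43, 9.37 and 9.21 CPM in section 4. Bins 4 and 5 lay above bins 1 to 3 in each section, and the bins 4 and 5 were nearly level in section 4. Between the outer bins the difference was 2.21 ± 0.16 (log2, SE; edgeR adjusted p = 1.70e-22), a 4.63-fold higher level near the central vein.

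Rspo3 followed a similar slope, with 2.66, 1.38 and 2.18 CPM in bin 1 and 9.78, 7.46 and 9.30 CPM in bin 5 of sections 2, 3 and 4. The difference was 2.10 ± 0.16 (log2, SE; edgeR adjusted p = 2.47e-21), or 4.28-fold. Wnt9b was sparse, with 1, 3 and 1 UMIs in bin 1 and 13, 18 and 19 UMIs in bin 5. In bin 2 no Wnt9b UMI was seen in sections 2 and 4, which allows up to 0.285 and 0.355 CPM. Its difference between the outer bins, 3.19 ± 0.53 (log2, SE; edgeR adjusted p = 3.72e-07), was 9.14-fold and had the widest error of the 9 genes.

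Vwf was high at both ends of the axis. Over bins 1 to 5 it measured 4.21, 2.19, 1.66, 4.08 and 8.65 CPM in section 2, 5.33, 3.90, 2.83, 4.45 and 6.78 CPM in section 3, and 6.06, 4.26, 1.23, 3.29 and 7.38 CPM in section 4. The lowest level was in the middle bin and the highest in bin 5 of each section. Bin 5 exceeded bin 1 by 0.55 ± 0.15 (log2, SE; edgeR adjusted p = 0.00247), and Thbd did so by 0.48 ± 0.17 (log2, SE; edgeR adjusted p = 0.0186). Both calls were fragile, since Vwf was no longer called without section 2 (adjusted p = 0.181) and Thbd without section 4 (adjusted p = 0.216).

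On the portal side, Cd34 measured 2.44, 1.84 and 2.08 CPM in bin 1 and 0.451, 0.489 and 0.479 CPM in bin 5 of sections 2, 3 and 4. Bin 5 was lower by 4.38-fold (log2 difference -2.13 ± 0.34, SE; edgeR adjusted p = 1.27e-07). Efnb2 fell from 3.25, 2.04 and 2.18 CPM in bin 1 to 0.677, 0.733 and 1.05 CPM in bin 5, which is 3.07-fold lower (edgeR adjusted p = 2.86e-06). For both genes the outer bins did not overlap. Ltbp4 sloped gently, from 46.3 ± 1.89 CPM (SD, n = 3) in bin 1 to 31.4 ± 1.77 CPM in bin 5, 1.48-fold lower (edgeR adjusted p = 2.24e-15). Plvap measured 48.7 ± 2.90 CPM (SD, n = 3) in bin 1 and 50.4 ± 6.80 CPM in bin 5, a difference within the spread between sections (0.04 ± 0.05, log2, SE; edgeR adjusted p = 0.628).

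**Figure D1:**
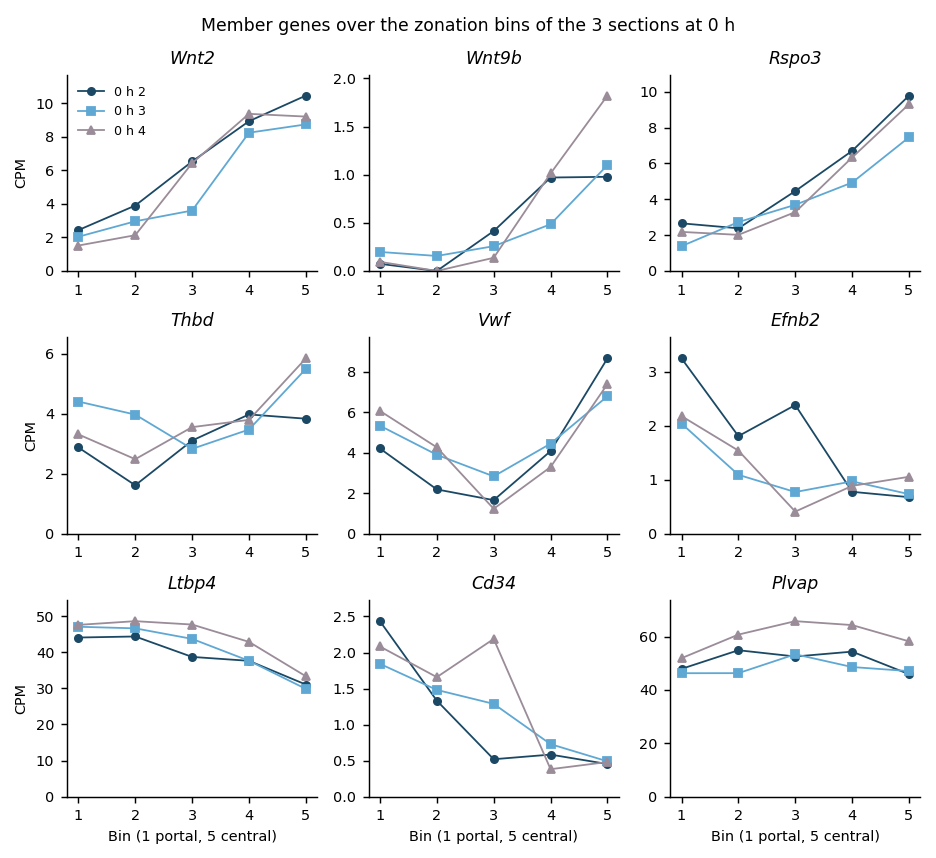
CPM of the 9 genes (vertical axes) over 5 bins of the zonation score (horizontal axes, 1 periportal to 5 pericentral) at 0 h, with 1 line for each of the 3 sections. Wnt2, Rspo3 and Wnt9b climb towards bin 5, Cd34 and Efnb2 decline, Vwf has its lowest level in bin 3, and Plvap stays between 45.9 and 65.8 CPM.

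Summed over the 7 general endothelial markers of the study (Pecam1, Icam2, Cdh5, Kdr, Eng, Flt4 and Stab2), the level ranged from 158 to 190 UMIs per 1000000 in bin 1 and from 213 to 240 in bin 5, and 3 of the 7 were called higher in bin 5. Bile duct markers had the opposite course, with 106 to 155 UMIs per 1000000 in bin 1 and 9.68 to 14.6 in bin 5. Vwf gave 26.6, 28.5 and 33.4 UMIs per 1000 UMIs of the 7 endothelial markers in bin 1 of sections 2, 3 and 4. In bin 5 it gave 42.5, 30.0 and 32.1. Thbd gave 18.2, 23.6 and 18.2 in bin 1 and 18.8, 24.3 and 25.4 in bin 5. On this scale Wnt2, Rspo3 and Wnt9b stayed higher in bin 5 of each section. Cd34, Efnb2 and Ltbp4 stayed higher in bin 1, and Plvap was higher there as well. How far the mix of cells accounts for the slopes of the 9 genes was not tested.

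A finer view came from spots rich in transcripts of cells that lie near the vessels. The vessels themselves were not identified. In each section at 0 h, the 5% of spots with the highest score for Glul, Oat, Slc1a2, Rhbg and Lgr5, genes of the innermost pericentral hepatocytes, were called Glul-rich, and the 5% with the highest score for Krt19, Krt7, Epcam, Spp1 and Sox9, genes of bile ducts in the portal tract, were called bile-duct-rich. Each class held 97, 133 and 116 spots in sections 2, 3 and 4. Against all other spots, 6 of 7 members tested were called in Glul-rich spots, 5 higher and 1 lower, where 18.8% of 9652 genes tested were called, 9.79% higher and 8.98% lower. In bile-duct-rich spots 7 of 7 were called, 5 higher and 2 lower, against 13.6% of all genes (8.05% upwards and 5.59% downwards). Between the classes themselves 5 of 7 were called, 3 higher and 2 lower in Glul-rich spots, against 23.2% of all genes (10.8% upwards and 12.5% downwards). Wnt9b and Efnb2 had too few UMIs for the test and are given as counts.

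Wnt2 reached 18.1, 12.8 and 17.7 CPM in the Glul-rich spots of sections 2, 3 and 4, compared with 6.03, 5.03 and 5.28 CPM in other spots and 3.09, 1.80 and 1.43 CPM in bile-duct-rich spots. Rspo3 had the same order, with 24.8, 15.6 and 16.0 CPM in Glul-rich, 4.34, 3.68 and 4.36 CPM in other and 2.70, 1.08 and 1.43 CPM in bile-duct-rich spots. The 3 classes did not overlap for either gene. Glul-rich exceeded bile-duct-rich spots by 7.43-fold for Wnt2 (2.89 ± 0.30, log2, SE; edgeR adjusted p = 1.92e-12) and by 10.8-fold for Rspo3 (3.44 ± 0.31, log2, SE; edgeR adjusted p = 9.41e-15). Below other spots, the bile-duct-rich level was called for both genes, but for Rspo3 not without section 3 or 4 (adjusted p = 0.120 and 0.0838), and for neither with the top 10% of spots (adjusted p = 0.210 for Wnt2 and 0.261 for Rspo3). Wnt9b gave 32 UMIs in Glul-rich spots and 1 in bile-duct-rich spots, a ratio per UMI of 27.9 with an exact 95% counting interval from 4.66 to 1136.

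Vwf was higher in both classes than in other spots. It measured 23.5, 23.7 and 29.1 CPM in Glul-rich spots and 12.8, 17.3 and 23.8 CPM in bile-duct-rich spots, against 2.92, 3.23 and 2.38 CPM elsewhere. Relative to other spots this was 8.67-fold (3.12 ± 0.16, log2, SE; edgeR adjusted p = 1.19e-24) and 6.07-fold (2.60 ± 0.19, log2, SE; edgeR adjusted p = 2.83e-17). The difference between the classes, 0.52 ± 0.18 (log2, SE; edgeR adjusted p = 0.0264), was not called without section 2 or 3 (adjusted p = 0.256 and 0.0623). Thbd was also higher in both classes, by 2.36-fold in Glul-rich spots (edgeR adjusted p = 2.51e-05) and 2.18-fold in bile-duct-rich spots (edgeR adjusted p = 0.000817), and the difference between the classes was 0.11 ± 0.29 (log2, SE; edgeR adjusted p = 0.854). In bile-duct-rich spots Thbd was uneven, with 6.57, 11.5 and 2.86 CPM in sections 2, 3 and 4, and the call was lost without section 3 (adjusted p = 0.307).

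Cd34 and Efnb2 had their highest level in bile-duct-rich spots, although most of their UMIs lay in other spots. Cd34 measured 6.18, 5.39 and 4.76 CPM in bile-duct-rich spots and 0.932, 1.02 and 1.28 CPM in other spots, a 5.14-fold difference (2.36 ± 0.31, log2, SE; edgeR adjusted p = 6.21e-09). Glul-rich spots held 3 Cd34 UMIs against 41 in bile-duct-rich spots, a ratio per UMI of 0.0638 (exact 95% counting interval 0.0126 to 0.200). For Efnb2 the counts were 3 and 23 UMIs, a ratio of 0.114 (0.0219 to 0.376). The bile-duct-rich UMIs of Efnb2 were 13, 5 and 5 in sections 2, 3 and 4. Other spots held 212 Efnb2 UMIs, and the ratio of bile-duct-rich to other spots was 2.19 (1.36 to 3.38). Ltbp4 measured 58.7, 85.9 and 66.2 CPM in bile-duct-rich, 39.3, 40.1 and 44.2 CPM in other and 34.8, 30.7 and 37.1 CPM in Glul-rich spots. It was 1.73-fold higher in bile-duct-rich than in other spots (edgeR adjusted p = 1.04e-10). The lower level of Ltbp4 in Glul-rich spots was not called without any 1 of the 3 sections (adjusted p from 0.0539 to 0.226), with scaling to the plain UMI total (adjusted p = 0.157), with scores from spots thinned to equal UMIs (adjusted p = 0.191) or without the section block (adjusted p = 0.301). Plvap differed little, 1.20-fold higher in Glul-rich spots (edgeR adjusted p = 0.0125) and 1.30-fold higher in bile-duct-rich spots (edgeR adjusted p = 0.000520) than elsewhere. Without section 3 neither Plvap call was made (adjusted p = 0.290 and 0.156), nor with the top 10% of spots (adjusted p = 0.436 and 0.127) or without the section block (adjusted p = 0.290 and 0.101), and the first was also lost when scaled to endothelial UMIs (adjusted p = 0.785).

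**Figure D2:**
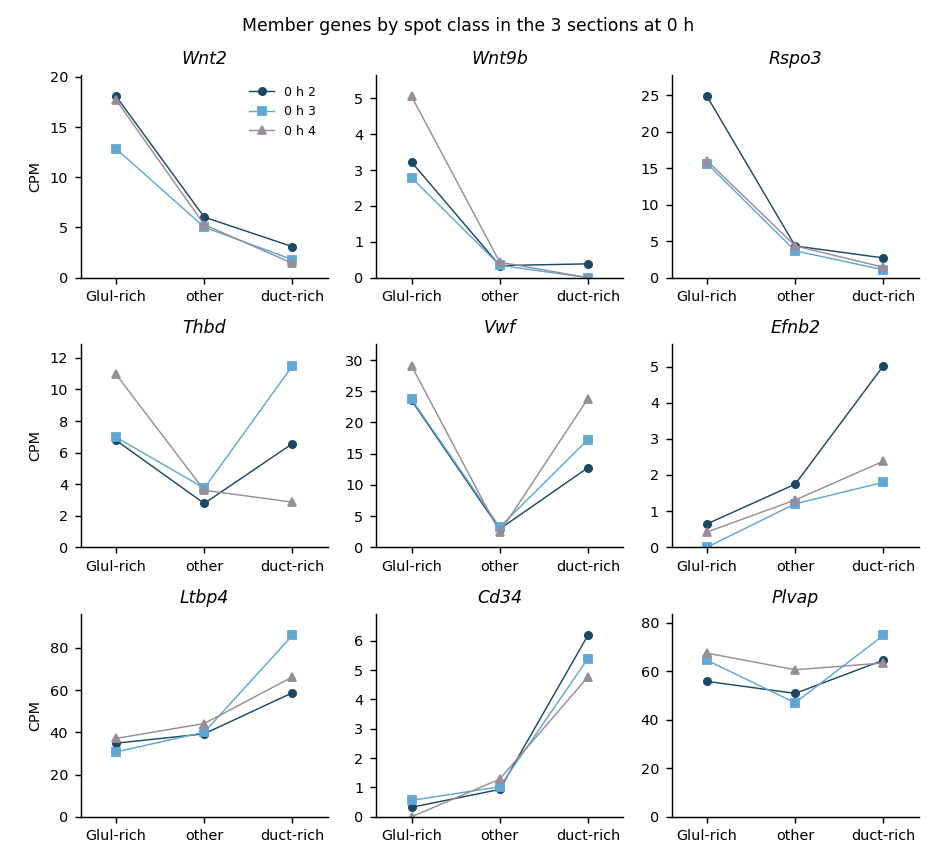
CPM of the 9 genes (vertical axes) in Glul-rich, other and bile-duct-rich spots at 0 h, with 1 point for each of the 3 sections. Vwf and Thbd are higher in Glul-rich and bile-duct-rich than in other spots, apart from the bile-duct-rich Thbd value of 2.86 CPM in section 4. Wnt2 and Rspo3 are highest in Glul-rich spots, and Cd34 in bile-duct-rich spots.

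The map of section 3 shows the same at the level of spots. At least 1 UMI of Wnt2, Rspo3 or Wnt9b was found in 70 of 133 Glul-rich spots, 7 of 133 bile-duct-rich spots and 463 of 2423 other spots. For Vwf these counts were 50, 30 and 181, and for Cd34 or Efnb2 they were 2, 17 and 129. With so few UMIs per spot, a spot without a UMI may still hold cells that express the gene.

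**Figure D3:**
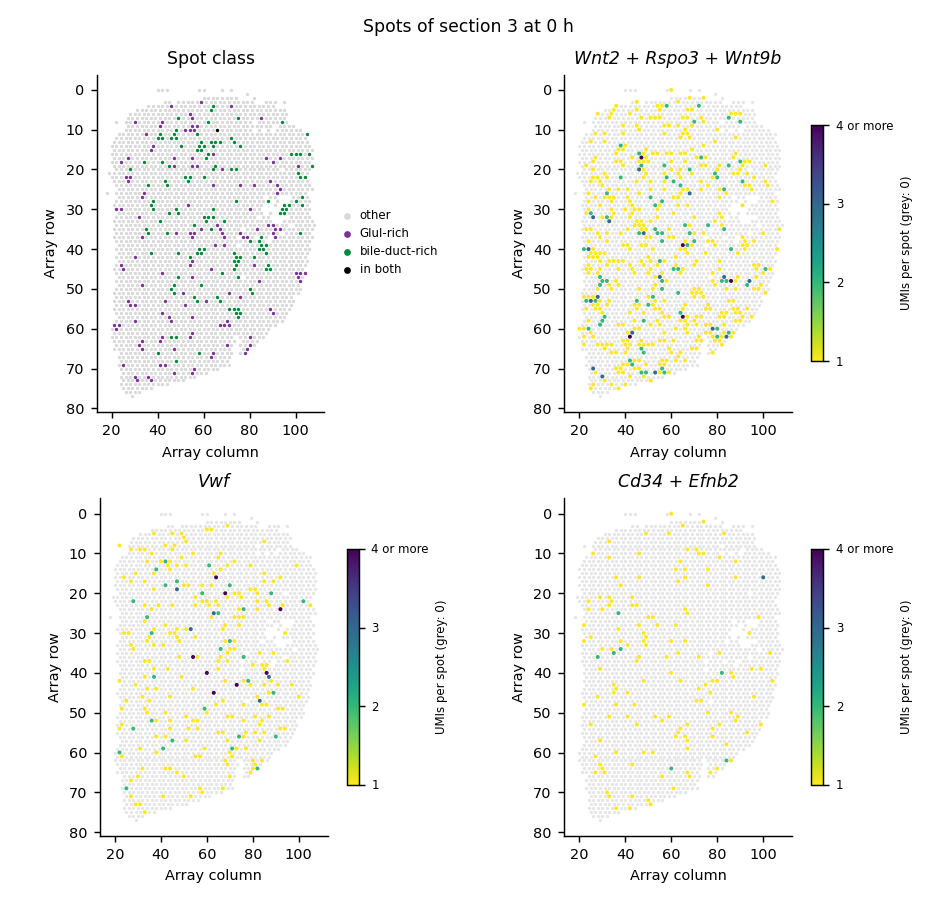
Section 3 at 0 h with 1 dot per spot at its place on the slide, coloured by spot class in the first panel and by UMIs per spot of Wnt2, Rspo3 and Wnt9b together, of Vwf, and of Cd34 and Efnb2 together in the others (colour scale ends at 4 or more UMIs). Spots with Wnt2, Rspo3 or Wnt9b include 70 of the 133 Glul-rich spots and 7 of the 133 bile-duct-rich spots.

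The endothelial markers of the study ranged from 238 to 276 UMIs per 1000000 in Glul-rich, 176 to 240 in bile-duct-rich and 194 to 222 in other spots, with ranges that overlapped between bile-duct-rich spots and both other classes. Myofibroblast markers (Acta2, Col1a1, Col1a2 and Col3a1) reached 81.9 to 119 UMIs per 1000000 in bile-duct-rich spots, 42.4 to 53.0 in Glul-rich and 25.6 to 31.7 in other spots. Portal fibroblast markers (Pi16, Dpt, Clec3b, Entpd2 and Thy1) reached 19.6 to 31.0 in bile-duct-rich spots, 8.49 to 9.0 in Glul-rich and 4.93 to 6.0 in other spots. Ltbp4 and Cd34 can also be made by fibroblasts, and the part of these cells in the portal values was not tested. Stellate cell markers ranged from 322 to 356 UMIs per 1000000 in Glul-rich, 220 to 230 in bile-duct-rich and 276 to 348 in other spots. The part of stellate cells was not tested either.

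Of 12 further vein genes 9 were tested, and 4 were higher and 1 lower in Glul-rich than in bile-duct-rich spots, against 10.8% upwards and 12.5% downwards of all genes (median log2 difference 0.59, against -0.01 over all genes tested). Kit, a receptor tyrosine kinase, was higher by 3.52 and the cadherin Cdh13 by 1.28, and the sialomucin Podxl was lower (-1.14). Against other spots, 5 of the 9 were higher and 0 lower in Glul-rich spots, and 4 were higher and 1 lower in bile-duct-rich spots. Of 10 further arterial and portal genes 6 were tested, 0 were higher and 4 lower (median -1.52): the adhesion receptor Adgrg6 (-4.48), the Notch ligands Dll4 (-1.93) and Jag1 (-1.19), and netrin 4, Ntn4 (-1.86).

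The Wnt pathway list gave fewer calls outside the targets. Of 17 other Wnt ligands 2 had enough UMIs, and Wnt4 was lower in Glul-rich than in bile-duct-rich spots (-1.64, log2; edgeR adjusted p = 0.00796). Neither of 2 tested genes of the list of other R-spondins and Wnt secretion was called. Among 9 receptors tested, Lgr5, the R-spondin receptor, was higher (4.68) and Fzd4 lower (-0.73), and among 3 inhibitors tested Rnf43 (2.14) and Notum (1.58), both also Wnt targets, were higher. With scaling to the plain UMI total the receptors gave 2 higher and 0 lower, so that the fall of Fzd4 was not called. Of 14 Wnt targets 13 were higher, but Glul, Oat, Slc1a2, Rhbg and Lgr5 set the class themselves.

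After APAP the question was how the 9 genes moved with time. At 24 h 7 of 9 members were called against 0 h, 2 higher and 5 lower, against 41.7% of all 14821 genes tested (23.1% upwards and 18.6% downwards). At 36 h 4 of 9 members were called, 2 higher and 2 lower, against 29.2% of all genes (16.8% upwards and 12.4% downwards). At 48 h 4 of 9 were called, 3 higher and 1 lower, against 44.2% of all genes (23.3% upwards and 20.9% downwards). The members' share was thus near that of all genes at 48 h and above it at 36 h, with only 9 members. From 24 to 36 h 2 members were called, both higher, against 15.6% of all genes (7.05% upwards and 8.55% downwards). From 36 to 48 h edgeR called 0, against 3.05% of all genes (1.62% upwards and 1.43% downwards), although 3 members had an unadjusted p under 0.05 and DESeq2 called 2, Wnt2 and Rspo3. The members not called from 24 to 36 h had differences of 1.02 for Wnt2, 0.93 for Vwf, 0.63 for Ltbp4, 0.55 for Rspo3, 0.49 for Plvap, -0.73 for Thbd and -0.95 for Efnb2 (log2; edgeR adjusted p from 0.0797 to 0.442). From 36 to 48 h the 3 with an unadjusted p under 0.05 were Rspo3 (1.06), Wnt2 (0.997) and Efnb2 (-0.81), with adjusted p from 0.0785 to 0.209. The others were Wnt9b (0.68), Plvap (0.17), Vwf (-0.03), Ltbp4 (-0.29), Thbd (-0.35) and Cd34 (-0.35), with adjusted p from 0.418 to 0.978. In whole sections, fewer cells of a type and less RNA per cell cannot be told apart.

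Scaling bears on these directions, since edgeR's TMM factors were 0.783 to 0.811 at 0 h and 0.983 to 1.17 after injury. With scaling to the plain UMI total, the median of all genes shifted upwards by 0.33 at 24 h, 0.44 at 36 h and 0.53 at 48 h (log2), and the share of calls that were higher went from 55.4% to 80.4%, from 57.5% to 94.1% and from 52.7% to 93.7%. All changes below are relative to the centre of all genes, as TMM scaling sets it, and the members whose direction or call against 0 h differed under the plain total are named with their values.

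**Figure D4:**
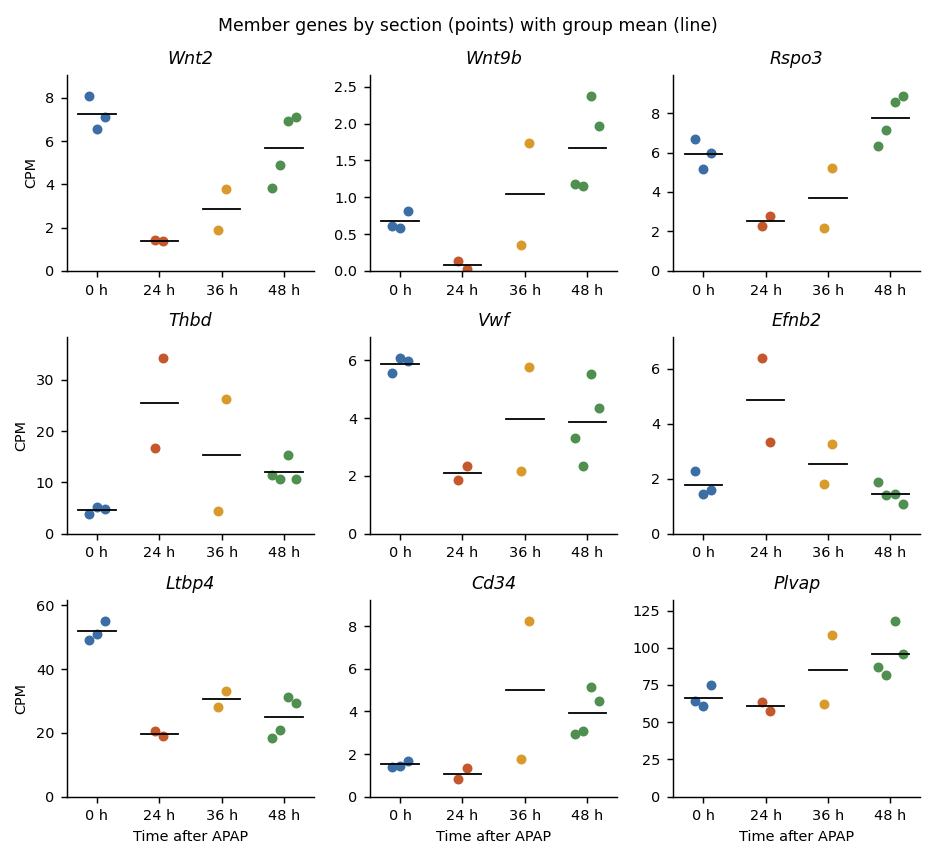
CPM of the 9 genes (vertical axes) in each of the 11 sections by time after APAP (horizontal axes, h), with a line through the group means. Wnt2, Rspo3, Vwf and Ltbp4 are lower in both sections at 24 h than in any section at 0 h, Thbd and Efnb2 are higher, and the sections A and B at 36 h lie apart for most genes.

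Wnt2 was lower at 24 and 36 h. It measured 8.10, 6.55 and 7.09 CPM in the 3 sections at 0 h, 1.44 and 1.37 CPM at 24 h, 1.91 and 3.79 CPM at 36 h, and 3.82, 4.89, 6.94 and 7.12 CPM at 48 h. Neither group at 24 or 36 h overlapped with 0 h, whereas the range at 48 h did. Relative to 0 h, the level at 24 h was 5.14-fold lower (log2 difference -2.36 ± 0.35, SE; edgeR adjusted p = 0.000486), and this call was kept with each of the 11 sections left out in turn. At 36 h Wnt2 was 2.54-fold lower (edgeR adjusted p = 0.0121, and 0.0562 without section A at 36 h), and at 48 h the difference was -0.35 ± 0.25 (log2, SE; edgeR adjusted p = 0.284), or 0.18 under the plain total. In order of mean level the times ran 0, 48, 36 and 24 h, and no neighbours in that order passed the test.

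For Rspo3 the test passed at 24 h, with 6.67, 5.19 and 5.96 CPM at 0 h and 2.26 and 2.81 CPM at 24 h (2.35-fold lower, log2 difference -1.23 ± 0.32, SE; edgeR adjusted p = 0.00976). At 36 h it measured 2.17 and 5.22 CPM, and the test passed only without section B (-1.45, log2; adjusted p = 0.00776). It measured at 48 h 6.36, 7.13, 8.58 and 8.88 CPM. The upper values at 48 h exceeded those at 0 h, with a difference of 0.38 ± 0.24 (log2, SE; edgeR adjusted p = 0.228). Under the plain total this difference was 0.91 and passed the test (adjusted p = 0.00626). The fall at 24 h was not called without section A at 24 h (adjusted p = 0.0828).

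Wnt9b gave 28, 32 and 29 UMIs in the sections at 0 h but 6 and 1 UMIs at 24 h. On the CPM scale this was 0.616, 0.589 and 0.819 at 0 h, 0.129 and 0.0319 at 24 h, 0.348 and 1.74 at 36 h, and 1.19, 1.15, 2.38 and 1.96 at 48 h. Every section at 48 h was above every section at 0 h, and the sections at 24 h were below. The fall at 24 h (-2.89 ± 0.82, log2, SE; edgeR adjusted p = 0.0162) was not called without section B at 24 h (adjusted p = 0.103). The level at 48 h was 2.50-fold that at 0 h (1.32 ± 0.48, log2, SE; edgeR adjusted p = 0.0466), and this call was lost without any 1 section at 0 h and without section C or D at 48 h, with adjusted p from 0.0800 to 0.139. Between 24 and 36 h Wnt9b rose by 3.54 ± 0.85 (log2, SE; edgeR adjusted p = 0.0226), and it was no longer called without either section at 24 h or section B at 36 h (adjusted p from 0.0818 to 0.148).

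Among the 14 Wnt targets of hepatocytes, the levels of 11 had fallen by 24 h, and 12 and 7 were lower than in uninjured sections at the later times, with 0, 0 and 1 higher (medians -2.61, -2.03 and -0.81, log2). At 48 h the glutamate transporter Slc1a2 (-5.88), Glul (-3.75), the ammonium transporter Rhbg (-3.10) and ornithine aminotransferase, Oat (-2.97) were lowest. Summed, the list ranged from 2973 to 3929 CPM at 0 h, 348 to 629 CPM at 24 h, 747 to 886 CPM at 36 h and 815 to 997 CPM at 48 h. Under the plain total the counts were 0 higher and 11 lower, 0 and 9, and 3 and 5, with a median of -0.29 at 48 h.

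Other parts of the pathway moved less uniformly. Of the 17 other Wnt ligands 5 were tested, with 1, 1 and 2 higher at 24, 36 and 48 h and 0 lower (Wnt6 2.24 and Wnt5a 1.42 at 48 h, log2), and 2, 3 and 4 higher under the plain total. Of the list of other R-spondins and Wnt secretion 3 were tested, and at 48 h the Wnt carrier Wls was higher (1.33) and the Wnt acyltransferase Porcn lower (-0.58). Receptors gave 1 higher and 6 lower of 13 at 24 h, 0 and 1 at 36 h and 2 and 3 at 48 h (Fzd2 2.12, Fzd3 1.77, Lgr5 -0.90 and Lrp6 -0.39). Secreted and membrane inhibitors gave 1 higher and 2 lower of 7 at 24 h, 1 and 2 at 36 h, and 4 and 0 at 48 h, led by Sfrp2 (4.06), Frzb (2.16) and Dkk3 (1.86). Under the plain total the inhibitors gave 1 and 2, 2 and 1, and 5 and 0, and the receptors 3 and 3, 3 and 1, and 5 and 0. At 48 h, the secretion list then gave 2 and 0, so that the falls of Lgr5, Lrp6 and Porcn were not called.

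Thbd was high at all injured times in all sections but 1. It measured 3.92, 5.23 and 4.89 CPM at 0 h, 16.7 and 34.2 CPM at 24 h, 4.40 and 26.3 CPM at 36 h, and 11.5, 10.6, 15.4 and 10.6 CPM at 48 h. Section A at 36 h lay within the range of 0 h, and all other injured sections lay above it. The level at 24 h was 5.42-fold that at 0 h (2.44 ± 0.57, log2, SE; edgeR adjusted p = 0.00762, and 0.0705 without section B at 24 h). The 3.28-fold difference at 36 h (edgeR adjusted p = 0.0492) rested on section B, without which it was -0.09 (log2), and was lost without any 1 of the other sections apart from 36 h A (adjusted p from 0.0526 to 0.124). At 48 h the 2.57-fold difference missed the threshold (1.36 ± 0.50, log2, SE; edgeR adjusted p = 0.0508), and it passed under the plain total (adjusted p = 0.00829) and without either section at 36 h (adjusted p = 0.00207 without A and 0.00231 without B). Thbd is also made by monocytes, macrophages and mesothelium, and the values of those markers are given below.

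Vwf took the other direction. It measured 5.57, 6.07 and 5.99 CPM at 0 h, 1.87 and 2.33 CPM at 24 h, 2.17 and 5.76 CPM at 36 h, and 3.33, 2.33, 5.52 and 4.35 CPM at 48 h. Of the 8 injured sections, 7 lay below the range of 0 h and section B at 36 h lay within it. The fall at 24 h was 2.81-fold (log2 difference -1.49 ± 0.42, SE; edgeR adjusted p = 0.0166) and was not called without either section at 24 h (adjusted p = 0.112 without A and 0.0605 without B). At 36 h and 48 h the differences were -0.57 ± 0.40 and -0.59 ± 0.32 (log2, SE; edgeR adjusted p = 0.308 and 0.161), and without section B the former was -1.44 (adjusted p = 0.0446).

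Ltbp4 was lower at each injured time. It measured 49.3, 51.2 and 55.1 CPM at 0 h, 20.5 and 19.1 CPM at 24 h, 28.0 and 33.3 CPM at 36 h, and 18.4, 21.0, 31.2 and 29.3 CPM at 48 h. No injured section reached the range of 0 h. The differences were -1.39 ± 0.21 at 24 h (edgeR adjusted p = 0.000615), -0.76 ± 0.21 at 36 h (edgeR adjusted p = 0.0206) and -1.05 ± 0.17 at 48 h (edgeR adjusted p = 0.000666), on the log2 scale with SE. The calls at 24 and 48 h were kept with each of the 11 sections left out in turn. The call at 36 h was lost without either section at 36 h (adjusted p = 0.0884 without A and 0.0526 without B), without section 4 at 0 h (adjusted p = 0.0552), and under the plain total (-0.32, log2; adjusted p = 0.208).

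Efnb2 was higher at 24 h. It measured 2.27, 1.44 and 1.61 CPM at 0 h, 6.38 and 3.35 CPM at 24 h, 1.80 and 3.28 CPM at 36 h, and 1.87, 1.41, 1.43 and 1.07 CPM at 48 h. Both sections at 24 h lay above 0 h, and the ranges overlapped at 36 and 48 h. The rise at 24 h was 2.76-fold (1.47 ± 0.35, log2, SE; edgeR adjusted p = 0.00699) and was not called without section A at 24 h (adjusted p = 0.114). Efnb2 also passed at 36 h under the plain total (0.95, log2; adjusted p = 0.0458). At 48 h the difference was -0.29 ± 0.31 (log2, SE; edgeR adjusted p = 0.462), and 0.24 under the plain total.

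Cd34 was late. It measured 1.41, 1.45 and 1.69 CPM at 0 h, 0.817 and 1.34 CPM at 24 h, 1.77 and 8.25 CPM at 36 h, and 2.95, 3.06, 5.16 and 4.49 CPM at 48 h. Each section at 36 and 48 h was above each section at 0 and 24 h, with section A at 36 h only just so. Against 0 h the difference was -0.51 ± 0.57 at 24 h (edgeR adjusted p = 0.498), 1.72 ± 0.51 at 36 h (edgeR adjusted p = 0.0299) and 1.37 ± 0.45 at 48 h (edgeR adjusted p = 0.0297), on the log2 scale with SE. Without section B the difference at 36 h was 0.22 (adjusted p = 0.737), without any 1 section at 0 h the call was lost as well (adjusted p from 0.0650 to 0.0866), and the call at 48 h was lost without any 1 section at 0 h and without section C or D at 48 h (adjusted p from 0.0581 to 0.0900). From 24 to 36 h Cd34 rose by 2.24 ± 0.61 (log2, SE; edgeR adjusted p = 0.0344), which was 0.77 without section B at 36 h (adjusted p = 0.278). This call was also lost without either section at 24 h (adjusted p = 0.187 without A and 0.0861 without B) and without any 1 section at 0 h (adjusted p from 0.0514 to 0.0532).

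Plvap was higher at 48 h. It measured 63.9, 60.5 and 75.0 CPM at 0 h, 63.7 and 57.8 CPM at 24 h, 62.0 and 108 CPM at 36 h, and 86.9, 82.0, 118 and 95.6 CPM at 48 h. The 4 sections at 48 h lay above those at 0 h, by 1.44-fold on average (0.52 ± 0.19, log2, SE; edgeR adjusted p = 0.0412). That call was lost without any 1 section at 0 h, either section at 24 h, or section C or D at 48 h (adjusted p from 0.0523 to 0.134). The other differences from 0 h were -0.13 ± 0.22 at 24 h and 0.36 ± 0.22 at 36 h (log2, SE; edgeR adjusted p = 0.671 and 0.240). They were 0.20 at 24 h and 0.79 at 36 h under the plain total, and the latter passed the test (adjusted p = 0.0107). Plvap at 36 h also passed without section A at 36 h (0.70, adjusted p = 0.0192) and was -0.10 without section B.

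The sections at 36 h stood apart from each other: B was higher than A in all 9 genes, from 1.19-fold in Ltbp4 to 5.96-fold in Thbd. Of the marker lists, the general endothelial sum was 247 to 283 CPM at 0 h, 210 to 228 at 24 h, 202 to 325 at 36 h and 207 to 264 at 48 h. Of its 7 genes 0 were higher and 1 lower at each injured time, but under the plain total 1, 3 and 4 were higher and 1 lower at 24, 36 and 48 h. Sinusoidal endothelial markers were 445 to 510 CPM at 0 h, 294 to 303 at 24 h, 307 to 418 at 36 h and 317 to 390 at 48 h, with 1 of 8 higher and 4 lower at 24 h, 0 and 3 at 36 h, and 1 and 5 at 48 h (under the plain total 1 and 4, 2 and 2, and 2 and 2).

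Markers of other cells that can make these transcripts also moved. In the order 0, 24, 36 and 48 h, platelet and megakaryocyte markers summed to 8.78 to 11.7, 27.0 to 36.8, 22.6 to 61.3 and 62.8 to 155 CPM. Mesothelial markers were 0.754 to 2.23, 0.946 to 1.82, 1.07 to 14.2 and 1.67 to 9.44 CPM, and mononuclear phagocyte markers 409 to 434, 553 to 595, 448 to 623 and 722 to 1326 CPM. Myofibroblast markers went from 37.5 to 45.9 CPM at 0 h to 483 to 1185 CPM at 48 h, smooth muscle markers from 38.7 to 50.2 to 83.4 to 105 CPM, and portal fibroblast markers from 7.43 to 8.83 to 9.67 to 18.0 CPM. Stellate cell markers were 341 to 438 CPM at 0 h, 148 to 175 at 24 h, 186 to 258 at 36 h and 219 to 280 at 48 h. Bile duct markers went from 50.7 to 74.0 CPM at 0 h to 197 to 469 CPM at 48 h, and hepatocyte markers from 119141 to 124597 to 85316 to 103822 CPM. Their part in the changes of the 9 genes was not tested.

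Levels were also set against the 7 endothelial markers rather than all RNA. UMIs of Thbd per 1000 endothelial UMIs were 15.9, 18.8 and 17.3 at 0 h and ranged from 21.8 to 150 in the 8 injured sections, all above 0 h (log2 difference 1.75; exact permutation test, two-sided, p = 0.0121, the smallest that 165 splits allow). For Ltbp4 they were 199.9, 184 and 194 at 0 h and 83.8 to 139 after injury (-0.90; exact permutation p = 0.0121), and for Vwf 22.6, 21.9 and 21.1 at 0 h and 8.90 to 21.0 after injury (-0.70; exact permutation p = 0.0121). Plvap rose from 259, 218 and 265 to 253 to 447 (0.49; exact permutation p = 0.0364), but it stayed under 0.05 only without section B at 24 h (p = 0.0167), and with any other section left out the exact permutation p was 0.05 to 0.133. These 4 of 9 unadjusted tests were under 0.05.

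For the remaining members the injured sections overlapped with 0 h. Wnt2 per 1000 endothelial UMIs was 32.8, 23.6 and 25.0 at 0 h, 6.86 and 6.01 at 24 h, 9.48 and 11.7 at 36 h, and 17.4, 23.7, 26.3 and 27.4 at 48 h (-0.95; exact permutation p = 0.109). Cd34 was 5.71, 5.23 and 5.98 at 0 h, 3.89 and 5.87 at 24 h, 8.76 and 25.4 at 36 h, and 13.5 to 19.6 at 48 h (1.05; exact permutation p = 0.0970). For Efnb2, Rspo3 and Wnt9b the differences of all injured sections from 0 h were 0.51, -0.14 and 0.10 (exact permutation p = 0.388, 0.812 and 0.897).

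Other vessel genes moved in both directions over time. Of 11 tested vein genes, 0 were higher and 4 lower at 24 h, 2 and 2 at 36 h, and 3 and 1 at 48 h (medians -0.07, -0.00 and 0.09). The adhesion molecules Vcam1 (1.75) and Selp (0.94) and the fatty acid carrier Fabp4 (1.21) were higher at 48 h, and the chemokine receptor Ackr1 lower (-0.83). Of 9 tested arterial and portal genes 3 were higher and 0 lower at 24 h, and 2 and 1 at both 36 and 48 h, where the Notch effector Hey1 (1.98) and Jag1 (1.04) were higher and the connexin Gja5 lower (-1.13). All-gene medians were 0.05, 0.05 and 0.01. Under the plain total the vein list had 4 higher and 3 lower at 24 h, 5 and 0 at 36 h, and 7 and 0 at 48 h, and the arterial and portal list 4 and 0, 5 and 1, and 4 and 0, so that the falls of Ackr1 and Gja5 were not called.

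The last question was where in the injured sections the 9 genes were found. Spots whose hepatocyte score lay below the 1st percentile of uninjured spots were called hepatocyte-low, and spots at least 3 grid steps away were called far. Only 6 of the 8 injured sections had 20 or more hepatocyte-low spots: 24 h A with 43, 36 h A with 20, and 48 h A, B, C and D with 156, 31, 280 and 91. Such spots made up 0.103, 1.04 and 2.02% of sections 2, 3 and 4 at 0 h. The share was 0.344 to 1.71% at 24 and 36 h, within the range at 0 h, and 2.08 to 10.7% at 48 h. Whether these spots lie in the injured area was not tested. Against far spots, 7 of 9 members were higher and 0 lower, where 59.4% of 12536 genes were called, 32.9% higher and 26.6% lower. The summed endothelial markers were also higher in these spots, as given below. Under the plain total, 8 were called, Ltbp4 also (0.30, log2), and the median of all genes moved by 0.47.

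Rspo3 measured 10.1, 9.21, 24.7, 46.9, 26.1 and 32.3 CPM in hepatocyte-low spots of 24 h A, 36 h A and 48 h A to D, and 2.44, 2.52, 6.57, 7.25, 6.77 and 8.05 CPM in far spots of the same sections. The difference was 4.26-fold (2.09 ± 0.14, log2, SE; edgeR adjusted p = 3.71e-12). Wnt2 measured 2.88 and 3.07 CPM at the earlier times against 1.51 and 2.47 CPM, and reached 13.5, 25.0, 19.5 and 22.7 CPM at 48 h against 3.99, 5.67, 6.52 and 8.05 CPM (1.65 ± 0.15, log2, SE; edgeR adjusted p = 1.48e-09). Wnt9b at 48 h measured 3.72, 8.98, 9.69 and 10.8 CPM against 1.32, 1.13, 1.47 and 1.82 CPM (2.45 ± 0.28 over the 6 sections, log2, SE; edgeR adjusted p = 4.12e-08). No Wnt9b UMI was found in the hepatocyte-low spots of 24 h A, which allows up to 4.31 CPM. In 24 h A and 36 h A the hepatocyte-low spots held 7 and 3 UMIs of Rspo3 and 2 and 1 of Wnt2. The Wnt2 values there rest on fewer than 3 UMIs, so no direction can be read for them.

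Thbd was higher in hepatocyte-low spots of each section, with 53.2, 24.6, 36.6, 38.9, 43.7 and 40.4 CPM against 19.0, 5.21, 11, 12.1, 12.7 and 10.5 CPM. The classes did not overlap, and the difference was 3.40-fold (1.76 ± 0.11, log2, SE; edgeR adjusted p = 1.48e-12). Vwf was 0, 3.07, 12.7, 14.0, 14.3 and 15.8 CPM against 2.30, 2.74, 4.21, 2.78, 7.58 and 4.89 CPM (2.59-fold; edgeR adjusted p = 5.87e-06), the 0 in 24 h A allowing up to 4.31 CPM. Cd34 was 1.44, 6.14, 11.4, 14.0, 14.5 and 16.2 CPM against 0.926, 2.17, 3.08, 3.72, 6.28 and 5.04 CPM (3.01-fold; edgeR adjusted p = 2.20e-08). In the hepatocyte-low spots of 24 h A and 36 h A, 3 UMIs equal 4.31 and 9.21 CPM. The Cd34 values there, and that of Vwf in 36 h A, lie below this, so no direction can be read for them.

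The remaining members did not share this. Plvap was 1.23-fold higher (0.30 ± 0.10, log2, SE; edgeR adjusted p = 0.0114), was not called without 48 h B (adjusted p = 0.0997), and turned lower when scaled to endothelial UMIs (-0.38). Ltbp4 differed by -0.17 ± 0.11 (log2, SE; edgeR adjusted p = 0.203), and by -0.86 when scaled to endothelial UMIs (adjusted p = 1.24e-07). Efnb2 measured 20.1 against 6.76 CPM in 24 h A, but 0, 1.33, 0.998, 0.562 and 0 against 2.39, 2.29, 1.88, 1.88 and 1.63 CPM in the other sections, where each 0 allows up to 9.21 CPM in 36 h A and 1.15 CPM in 48 h D, so that no direction can be read for 36 h A. The hepatocyte-low value of Efnb2 in 48 h B rests on 1 UMI, so no direction can be read there either. Without 24 h A the difference for Efnb2 was -1.56 (log2; adjusted p = 0.00302), and with it -0.36 (edgeR adjusted p = 0.544).

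**Figure D5:**
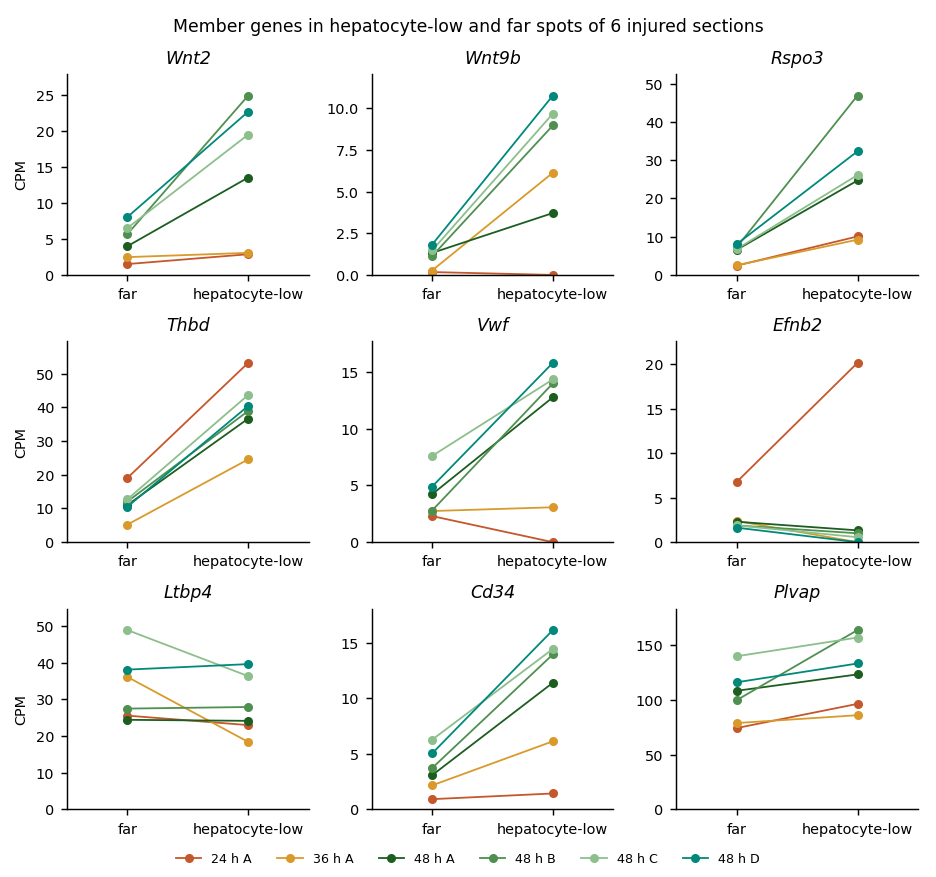
CPM of the 9 genes (vertical axes) in far and hepatocyte-low spots of 6 injured sections, with a line joining the values of 1 section. Thbd and Rspo3 rise in each of the 6 sections, and Cd34 and Wnt2 rise in each section at 48 h. In 24 h A and 36 h A the hepatocyte-low values of Cd34 and Wnt2 rest on fewer than 3 UMIs. Efnb2 rises in 24 h A and is drawn lower in the other sections. Its 0 in 36 h A allows up to 9.21 CPM, and its hepatocyte-low value in 48 h B rests on 1 UMI.

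In these spots the endothelial markers summed to 353 to 631 UMIs per 1000000 against 209 to 269 in far spots, mononuclear phagocyte markers to 1434 to 7032 against 464 to 1067, myofibroblast markers to 271 to 6136 against 98.1 to 954, and platelet markers to 74.4 to 649 against 22.2 to 82.8. Hepatocyte markers, which set the class, were 48925 to 63452 against 100091 to 122347. Per 1000 endothelial UMIs, Vwf at 48 h was 30.2, 26.9, 31.2 and 30.8 in hepatocyte-low spots of A to D. In far spots it was 16.0, 11.2, 25.6 and 15.7. Wnt2 at 48 h was 32.1, 48.1, 42.5 and 44.3 against 15.2, 22.9, 22.0 and 25.9. Rspo3, Thbd and Wnt9b were also higher on this scale in each section at 48 h. Of 11 tested vein genes 9 were higher and 0 lower (median 0.91, against 0.07 over all genes), with Selp at 2.68 and Cdh13 at 2.19, whereas of 8 arterial and portal genes 3 were higher and 2 lower (median 0.18). Of the Wnt pathway, Wls (1.78), Fzd2 (1.97), Dkk3 (1.80), Frzb (1.44) and Wnt4 (1.03) were higher, and Notum (-1.35), Porcn (-0.86) and Rnf43 (-0.83) lower. Under the plain total the secretion list gave 1 higher and 0 lower, so that the fall of Porcn was not called. The inhibitors then gave 2 higher and 1 lower, where TMM scaling gave 2 and 3. The part of each cell type in these differences was not tested.

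For each member the genes with the most similar course over the 11 sections were listed, by Pearson's r of log2 CPM among up to 9135 genes with at least 5 CPM on average, as a description, since the sections share times and mice. Wnt2 was closest to Thra (r = 0.987), Slc16a10 (0.969) and Smpdl3a (0.968), Wnt9b to Mxra8 (0.986), Slc43a3 (0.977) and Pam (0.968), and Rspo3 to Plekhb2 (0.968), Mylip (0.956) and Ramp1 (0.956). Thbd was closest to Osmr (0.964), Itga5 (0.960) and Sema3f (0.955), Vwf to Scpep1 (0.966), Cux1 (0.948) and Snrpc (0.934), and Efnb2 to Nol6 (0.942), Fem1a (0.924) and Rpl31 (0.923). Ltbp4 was closest to H2-Ab1 (0.972), F8 (0.970) and H2-Aa (0.966), Cd34 to Ucp2 (0.973), Cavin1 (0.969) and Anapc5 (0.968), and Plvap to Clstn1 (0.973), Emilin1 (0.958) and Ucp2 (0.957). Wnt2, Wnt9b, Vwf, Efnb2 and Cd34 averaged under 5 CPM, so they could not be listed for another member. Of the members that could be, Rspo3, Thbd, Ltbp4 and Plvap, none was among the 3 genes closest to another member.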

How the data were processed

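Spatial RNA was measured in 11 mouse liver sections. The authors deposited raw UMI counts per spot, made with Space Ranger 1.0.0 on mm10, and the labels also name Seurat 4.1.1; counts are of the 3′ ends of transcripts and were not normalized. Spots with at least 800 genes and at most 20% mitochondrial UMIs, the filter in the study's methods, were summed per section, or per section and spot class. Sums were scaled by TMM, filtered by filterByExpr and tested with edgeR 4.0.16 (quasi-likelihood, two-sided, Benjamini-Hochberg over all genes tested, call at an adjusted p under 0.05); all 11 sections shared 1 fit over time, and classes were compared with the section as a block. CPM belong to their own fit. A second fit used DESeq2 1.42.0. The fits were tested on simulated data. All 9 members are named in each comparison; of each further list, up to 4 called genes with the largest change are named (at 48 h, and in Glul-rich against bile-duct-rich spots), and for the hepatocyte-low spots the same genes. The members, lists and tests were chosen with earlier results of these data known. Intervals and floors (3 UMIs per library) cover counting error only. Alternatives are listed in the closing section.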

Additional observations from a re-analysis of the deposited data

Results flagged for a closer look

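For 2 members the change from 0 h differed between 24 h and 36 h by the direct test of 36 h against 24 h (edgeR's quasi-likelihood test, all 11 sections): Wnt9b by 3.54 (log2; adjusted p = 0.0226) and Cd34 by 2.24 (adjusted p = 0.0344). Each was higher in both sections at 36 h than in either at 24 h. Against 0 h the values were -2.89 and 0.64 for Wnt9b and -0.51 and 1.72 for Cd34. Neither was called without section B at 36 h or without either section at 24 h, and Cd34 was also not called without any 1 section at 0 h. A single section lying apart from its group could be looked for only at 48 h, which has 4 sections, and there no member had one.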

How the results depend on the processing

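Apart from the counts of members called, 510 values under another setting kept their direction and their side of the threshold, 16 came to pass it, 35 no longer did and 14 changed sign, and with 1 section left out these numbers were 628, 17, 72 and 21. Scaling to endothelial UMIs in the 0 h classes, the fit of injured sections alone, the endothelial list without Stab2 and leaving out sections from the endothelial ratios were added after seeing the data.

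The number of members called moved as follows. It was 2 at 36 h against 0 h with only those groups in the fit, and 0 at 36 h against 24 h with only those groups. For sections of the same letter, the correlation of deviations was 0.287 between 24 and 36 h. With 2 sections at each of these times, this value is the same for A and B. It was 0.0736 for A and -0.241 for B between 36 and 48 h, and -0.124 and -0.122 between 24 and 48 h. Whether the letters pair the sections cannot be settled from so few sections. With the letter as a replicate block the count at 36 h against 24 h was 0 (Wnt9b 3.32, adjusted p = 0.123, and Cd34 2.01, adjusted p = 0.115), and 0 without the block in the same injured sections. At 48 h against 36 h it was 2 with endothelial scaling and 2 with DESeq2. For bile-duct-rich against other spots it was 4 without the section block, 4 with the top 10% of spots and 4 with the score on thinned spots.

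With 1 section left out the counts ranged from 4 to 7 at 24 h, 1 to 4 at 36 h and 1 to 5 at 48 h against 0 h, 0 to 6 at 36 h against 24 h and 0 to 2 at 48 h against 36 h. They ranged from 7 to 8 between outer bins, 4 to 5 for Glul-rich against other, 4 to 7 for bile-duct-rich against other, 4 to 5 for Glul-rich against bile-duct-rich spots, 6 to 8 for hepatocyte-low spots, and 3 to 4 for the endothelial ratios.

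Signs turned (log2) under the plain total for Plvap at 24 h (0.20), Wnt2 (0.18) and Efnb2 (0.24) at 48 h, Vwf from 36 to 48 h (0.0791), and Efnb2 (0.0932) and Ltbp4 (0.30) in hepatocyte-low spots. They turned under endothelial scaling for Plvap at 24 h (0.17), Vwf from 36 to 48 h (0.16), Thbd between Glul-rich and bile-duct-rich spots (-0.13) and Plvap in hepatocyte-low spots (-0.38). Vwf from 36 to 48 h was 0.000994 with DESeq2 size factors and 0.00869 with no gene filter, Plvap between outer bins -0.0267 on thinned spots, and Efnb2 in hepatocyte-low spots 0.0560 at the 5th percentile. The causes were not tested.

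Signs also turned with 1 section left out. Against 0 h at 36 h, Wnt9b ranged from -0.94 to 1.37, Thbd from -0.0883 to 2.48 and Plvap from -0.10 to 0.70. From 24 to 36 h, Thbd ranged from -2.49 to 0.0481 and Rspo3 from -0.17 to 1.05. From 36 to 48 h, Wnt9b ranged from -0.0530 to 2.26, Plvap from -0.18 to 0.62, Thbd from -1.12 to 1.44, Vwf from -0.56 to 0.84 and Cd34 from -1.07 to 1.15. Plvap ranged from -0.0136 to 0.0899 between outer bins and Thbd from -0.41 to 0.82 between Glul-rich and bile-duct-rich spots. Per endothelial UMI, Rspo3 ranged from -0.25 to 0.0127 and Wnt9b from -0.15 to 0.62.

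Wnt9b and Efnb2 had the fewest UMIs in total. They and other members, Cd34 among them, gave under 5 UMIs in some classes and sections, and the number of sections per time limits every test over time.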
